A study of Mus musculus with 2 samples.

Results

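The stefin A genes and the epidermal cystatins were followed in single cells of inflamed mouse back skin. The 8 genes, of 31053 in the count tables, were the stefin A genes Stfa1, Stfa2, Stfa3, Stfa2l1 and BC100530, the secreted cystatins Cst6 and Cst3, and the stefin B gene Cstb. They were taken by symbol, and all 8 had UMIs (unique molecular identifiers, each standing for 1 captured RNA molecule) in both libraries. The genes were chosen with the levels in these libraries known, so their levels and their differences between the libraries are a description, with no test. The skin came from wild-type (WT) mice and from mice lacking Chrna5 (KO), the gene of a nicotinic acetylcholine receptor subunit. All were female, on a C57BL/6 background and 6 to 8 weeks old; the labels name both C57BL/6N, to which the KO mice had been backcrossed, and C57BL/6J. Each received 62.5 mg of a cream with 5% imiquimod, a Toll-like receptor agonist that causes psoriasis-like inflammation, on shaved back skin daily for 6 days, and skin was taken on day 7. Experimental groups held 5 mice, and the labels do not say whether a library pooled them. Skin given cream without imiquimod was not analysed here, so both groups compared are inflamed. The skin was digested with collagenase and living cells were sorted as SytoxBlue-negative before droplet capture.

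Stefins and cystatins are tight, reversible inhibitors of papain-like cysteine proteases such as the cathepsins B, L, S and H. Stefin A is cytosolic, is made by differentiating keratinocytes and is built into the cornified envelope, and the mouse has a cluster of stefin A genes where humans have a single gene. Cystatin M/E, the product of Cst6, is secreted and inhibits cathepsin L and legumain, and mice without it have a scaling, defective skin barrier. Cystatin C, the product of Cst3, is secreted by most cell types, and stefin B, the product of Cstb, is a widely expressed inhibitor of the cytosol.

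The WT library held 13938 cells after filtering, with a median of 4603 UMIs, and the KO library 10233 cells with a median of 6374 UMIs. The 2 libraries shared 44 barcodes among these cells. Chrna5 itself had 12 UMIs in WT and 6 in KO; which exons the knockout removes is not stated in the sources used here, so 3' counts cannot check the genotype. With 1 library per genotype, no difference between WT and KO has a replicate check. Cells were gated by marker genes into basal keratinocytes (2146 WT and 950 KO cells, led by Krt5 and Krt14), suprabasal keratinocytes (1218 and 574, Krt1 and Krt10), upper follicle cells (477 and 276, Krt79) and keratinocytes whose markers did not decide between these classes (mixed, 1044 and 669). Fibroblasts (1793 and 2073) and monocytes and macrophages (744 and 665) were also compared. Median depth differed within the keratinocyte classes, from 12189.5 UMIs in WT to 17172.5 in KO in basal cells, from 6021.5 to 24799 in suprabasal cells and from 2320 to 15732.5 in upper follicle cells. Of the upper follicle cells, 40.0% in WT and 33.3% in KO lay within 5 points of the gate's margin, against 14.2% and 5.40% of suprabasal and 19.6% and 20.3% of basal cells. The leading cluster within a gate also differed: cluster 7 in WT and 9 in KO for basal, 12 and 13 for suprabasal, and 5 and 12 for upper follicle cells. Krt10 stood at 2080 and 3347 CPM in suprabasal and at 47.0 and 54.8 CPM in basal cells, and Krt79 at 2731 and 3460 CPM in upper follicle and at 95.2 and 161 CPM in basal cells. The 6 upper follicle markers summed to 13599 and 16759 CPM in the upper follicle gate and to 13690 and 17674 CPM in suprabasal cells, so they set this class apart from basal but not from suprabasal cells. The 8 suprabasal markers summed to 8562 and 6316 CPM in upper follicle cells and to 20180 and 20786 CPM in suprabasal cells.

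Levels are counts per 1000000 UMIs of the summed class (CPM); the UMIs come from the 3' end of transcripts and do not depend on their length. Ratios are KO over WT with exact 95% intervals, which cover counting error only. A gene with at least 20 UMIs over both libraries is called higher or lower where its ratio reaches 1.5-fold and the interval does not include 1.

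The stefin A genes lie side by side on mouse chromosome 16. The annotation of build mm10 places 10 stefin A genes and copies between 36119946 and 36455392, a stretch of 335447 bases. Stfa2l1 (36156811 to 36161953, plus strand) comes first, then Stfa1 (36276951 to 36285373, plus), BC100530 (36359382 to 36367748, minus), Stfa2 (36403992 to 36408457, minus) and Stfa3 (36450537 to 36455392, minus). Cst6 (chromosome 19, 5344705 to 5349574, minus), Cst3 (chromosome 2, 148871722 to 148875692, minus) and Cstb (chromosome 10, 78425669 to 78427622, plus) lie elsewhere. Each of the 8 genes has 3 exons.

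Because the stefin A genes are near copies, the last 60 coding bases before the stop codon are shown, where 3' counting has to tell them apart. Capitals mark bases that differ from BC100530.
BC100530: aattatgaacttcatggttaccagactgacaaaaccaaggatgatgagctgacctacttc
BC117090: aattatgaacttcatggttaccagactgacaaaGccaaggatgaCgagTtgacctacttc
Stfa1: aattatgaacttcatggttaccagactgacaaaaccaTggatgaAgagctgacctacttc
Stfa3: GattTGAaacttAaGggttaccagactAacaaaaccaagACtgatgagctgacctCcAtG
Stfa2: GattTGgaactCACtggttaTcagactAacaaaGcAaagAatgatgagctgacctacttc
Stfa2l1: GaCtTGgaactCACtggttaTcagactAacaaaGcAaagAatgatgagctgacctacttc
Over these bases Stfa1 differed from BC100530 at 2 positions and BC117090, a stefin A copy outside the 8 genes, at 3. Stfa3 differed at 12 and Stfa2 at 11, and Stfa2l1 differed from Stfa2 at 1. Of the 90-base windows in the last 500 transcript bases, BC100530 shared 146 of 411 (35.5%) with another gene, among them BC117090, Stfa1 and Gm15845, an antisense gene that overlaps BC100530 by 679 bases. Stfa1 shared 18 of 411 windows (4.38%), Stfa2 8 of 382 (2.09%) and Stfa2l1 8 of 330 (2.42%), whereas Stfa3, Cst6, Cst3 and Cstb shared 0. With windows of 60 bases the shares were 53.5% for BC100530, 17.9% for Stfa1, 10.2% for Stfa2 and 16.9% for Stfa2l1, and again 0 for the other 4. Both strands were searched, and the match to Gm15845 was on the strand opposite to BC100530. The BC100530 shares at both lengths are thus upper limits for copies on the same strand. The counts of BC100530 are uncertain to the extent that reads were split or dropped between copies. The counts of Stfa1, Stfa2 and Stfa2l1 are less exposed by this measure, and Stfa3 and the 3 genes elsewhere had no shared window at either length. Only identical windows were searched, so reads placed with mismatches were not covered. The coding sequence of Stfa3 was 80.0% identical to that of BC100530.

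Promoters are shown for 3 stefin A genes that differ in where and how strongly they were seen in spite of similar sequence, and for Cst3, which was seen in every class. They come from RefSeq on GRCm38.p6 and run from 250 bases before to 50 bases after the RefSeq start, 5′ to 3′ on the gene's strand; 5 of the 8 genes matched an entry. Capitals in the stefin promoters mark runs of at least 12 bases held by all 4 stefin A promoters matched, and in Cst3 they mark GGGCGG or its reverse complement.
Stfa1 (chr16:36276898-36277197, plus): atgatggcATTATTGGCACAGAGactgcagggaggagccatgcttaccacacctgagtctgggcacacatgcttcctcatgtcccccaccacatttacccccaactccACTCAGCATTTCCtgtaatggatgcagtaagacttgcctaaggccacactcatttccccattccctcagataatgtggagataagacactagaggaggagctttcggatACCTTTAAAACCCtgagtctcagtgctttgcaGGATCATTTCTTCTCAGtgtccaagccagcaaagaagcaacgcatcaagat
Stfa3 (chr16:36455343-36455642, minus): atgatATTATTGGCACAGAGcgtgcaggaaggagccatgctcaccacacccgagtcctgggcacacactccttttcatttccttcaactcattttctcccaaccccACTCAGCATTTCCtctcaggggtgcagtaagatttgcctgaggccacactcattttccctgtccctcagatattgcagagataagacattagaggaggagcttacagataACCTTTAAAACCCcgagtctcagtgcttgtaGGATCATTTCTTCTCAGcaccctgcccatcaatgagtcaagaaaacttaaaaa
Stfa2l1 (chr16:36156561-36156860, plus): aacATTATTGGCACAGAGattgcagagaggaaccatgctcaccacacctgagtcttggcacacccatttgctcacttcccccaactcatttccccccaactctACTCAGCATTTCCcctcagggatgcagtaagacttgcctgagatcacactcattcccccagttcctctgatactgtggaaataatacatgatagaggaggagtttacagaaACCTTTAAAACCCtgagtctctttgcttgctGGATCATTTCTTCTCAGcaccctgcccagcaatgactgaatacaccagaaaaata
Cst3 (chr2:148875463-148875762, minus): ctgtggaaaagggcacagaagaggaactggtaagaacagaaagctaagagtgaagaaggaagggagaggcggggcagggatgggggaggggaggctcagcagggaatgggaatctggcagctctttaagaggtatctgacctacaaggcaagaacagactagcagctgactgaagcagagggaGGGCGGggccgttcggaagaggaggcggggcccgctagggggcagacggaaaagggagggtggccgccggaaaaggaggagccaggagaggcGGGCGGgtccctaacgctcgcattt
The promoters of Stfa1 and Stfa3 were identical at 81.0% of aligned bases, those of Stfa1 and Stfa2 at 79.3% and those of Stfa2 and Stfa2l1 at 90.5%, against 40.1% to 44.3% between these 4 and Cst3. Not all stefin A promoters were this alike. Against the same 4, those of Csta1 (46.7% to 49.1%) and Csta2 (43.4% to 49.7%), outside the 8 genes, were nearer to the Cst3 range. Csta3, also outside them, was at 61.9% to 66.1%. Searched on both strands, the run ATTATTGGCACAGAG was found in 5 of 32851 promoters (0.0152%), ACTCAGCATTTCC in 10 (0.0304%), ACCTTTAAAACCC in 9 (0.0274%) and GGATCATTTCTTCTCAG in 6 (0.0183%). The run ACCTTTAAAACCC begins 32 to 36 bases before the start in the 4 stefin promoters. It holds the letters TTTAAA, which 13.2% of all promoters hold. Cst3 had 13 CpG pairs, 60.3% GC and 2 matches of GGGCGG, which 35.7% of promoters hold, whereas the 4 stefin promoters had 0 to 3 CpG pairs, 46.3% to 48.7% GC and 0 matches. A match here is a description of letters and not a binding site.

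Across the 4 keratinocyte classes, the 3 abundant stefin A genes stood in the same order in WT. Stfa1 stood at 2133 CPM in WT suprabasal cells, at 827 in basal, 421 in mixed and 387 in upper follicle cells. BC100530 stood at 9132, 3682, 1865 and 1641 CPM in the same classes, and Stfa3 at 1896, 1078, 437 and 424 CPM. In KO, suprabasal and basal cells again held the highest and next highest levels of all 3. In melanocytes (68 WT and 75 KO cells) Stfa1 stood at 47.8 CPM in WT and 94.9 in KO, but 31 of the 32 KO UMIs were in 1 cell. BC100530 stood there at 257 and 573 CPM, with 175 of the 193 KO UMIs in 1 cell. Without the highest cell of each library, which was left out in this way for each value after seeing the data, the levels were 42.4 and 3.36 CPM for Stfa1 and 243 and 60.4 CPM for BC100530. Suprabasal and basal cells together held most stefin A UMIs, with 47.9% and 35.6% of the WT Stfa1 UMIs and 56.9% and 24.2% of the KO ones. Fibroblasts, macrophages and T cells were at 4.51 to 65.9 CPM of Stfa1, under 20% of the suprabasal level of their own library, a level that free RNA in the droplets can give. BC100530 ranked 7th of all genes by UMIs in WT suprabasal cells and 85th in KO.

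**Figure D1:**
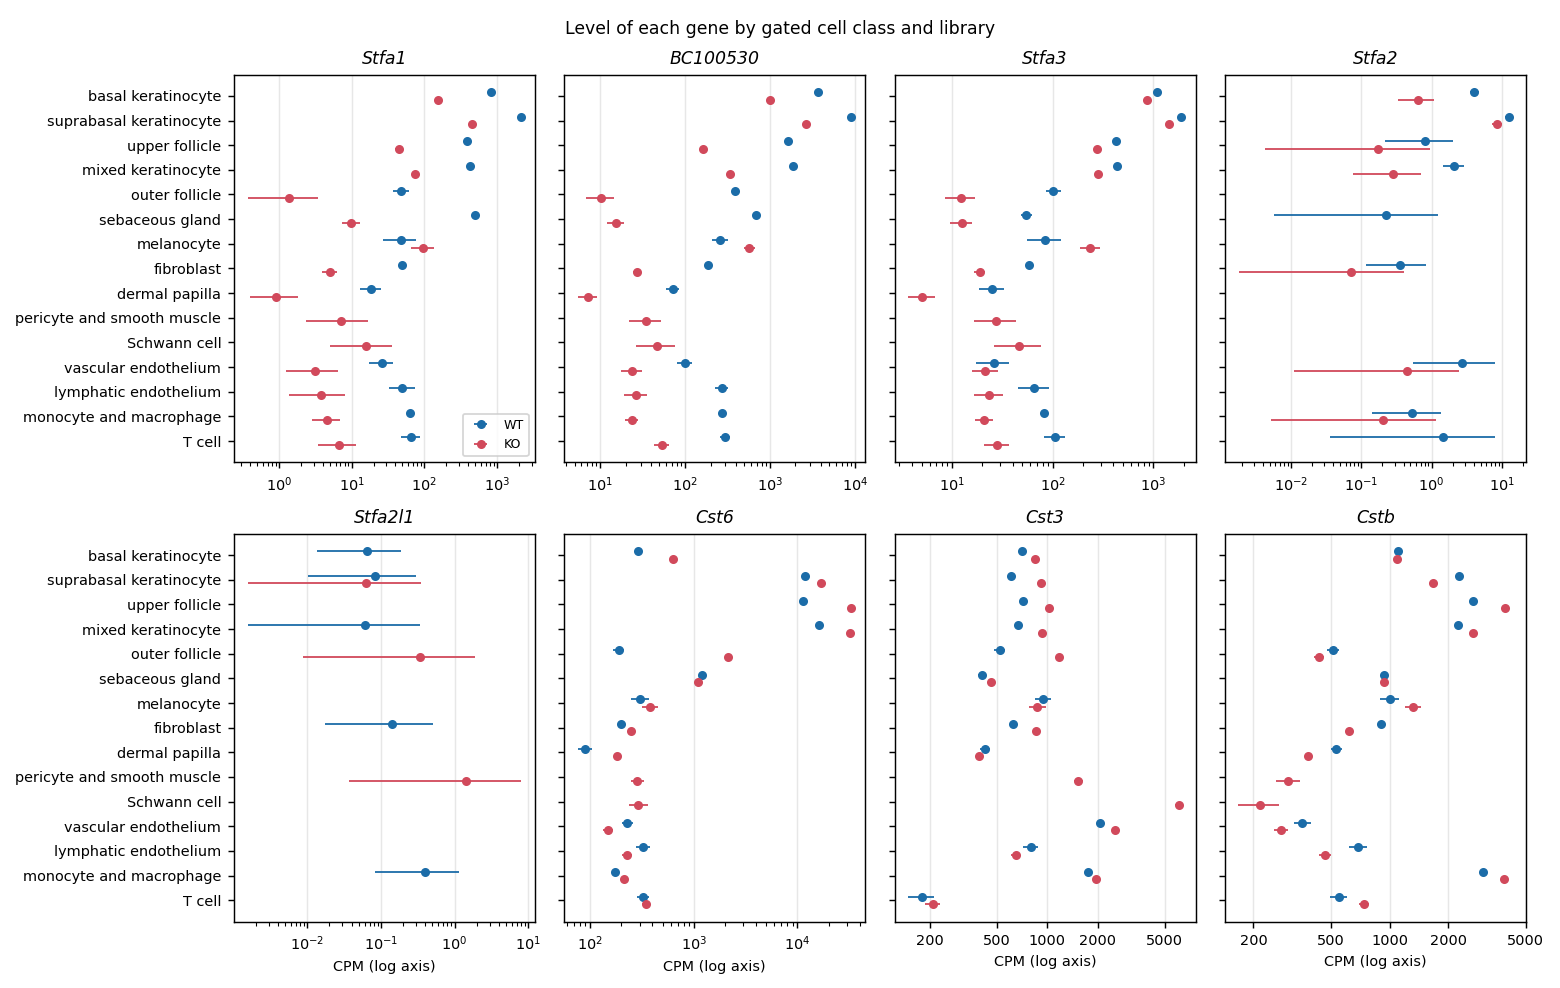
Levels (CPM, log axis) of the 8 genes in each cell class with at least 50 cells in that library, WT and KO, with exact 95% Poisson intervals; a level of 0 has no point. Stfa1 and BC100530 are highest in suprabasal cells and lower in KO in each keratinocyte class, while Cst6 is highest in upper follicle, mixed and suprabasal cells and higher in KO.

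Stfa1 was lower in KO in each of the 4 keratinocyte classes. In basal cells it stood at 827 CPM (WT) and 153 CPM (KO), which is 5.39-fold lower (ratio 0.185, 0.179 to 0.192). In suprabasal cells it stood at 2133 and 457 CPM, 4.67-fold lower (ratio 0.214, 0.209 to 0.220). In upper follicle cells it stood at 387 and 45.0 CPM, 8.60-fold lower (ratio 0.116, 0.102 to 0.132). The difference was thus of similar size in the layers where the gene is highest. It was larger in the upper follicle gate, where depth differed most. The leading WT cluster of that gate, cluster 5, held 992 WT cells and 1 KO cell, so unlike cells may be compared there.

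BC100530, the most abundant stefin A gene, followed the same direction. It stood at 3682 and 1015 CPM in basal cells (ratio 0.276, 0.272 to 0.280), at 9132 and 2658 CPM in suprabasal cells (0.291, 0.288 to 0.294) and at 1641 and 162 CPM in upper follicle cells (0.0989, 0.0923 to 0.106). The median suprabasal cell held 31.6 BC100530 UMIs per 10000 in WT and 7.98 in KO, and the highest cell 603 and 173. Stfa1 had suprabasal medians of 6.23 and 1.44 per 10000 and 90th percentiles of 34.4 and 10.4. Both the typical and the highest cells were thus lower in KO.

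Stfa3 differed less. It stood at 1078 and 867 CPM in basal cells (ratio 0.804, 0.791 to 0.818) and at 1896 and 1411 CPM in suprabasal cells (0.744, 0.733 to 0.756), under the 1.5-fold needed for a call in both. In upper follicle cells it was lower, at 424 and 276 CPM (0.651, 0.610 to 0.695), and in mixed cells at 437 and 281 CPM (0.643). Inside cluster 12 alone it was called in neither (0.918 in upper follicle and 0.706 in mixed cells), nor in mixed cells of cluster 13 (0.80), and inside cluster 11 mixed cells kept the call (0.504). The median suprabasal cell held 6.89 and 5.65 Stfa3 UMIs per 10000.

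The ratio of 1 stefin A gene to another within a library does not depend on the class total, and it set Stfa3 apart from Stfa1. In basal cells there were 1.30 Stfa3 UMIs per Stfa1 UMI in WT and 5.65 in KO. In suprabasal cells there were 0.889 and 3.09, and in upper follicle cells 1.09 and 6.13. Fibroblasts (1.16 and 3.77), macrophages (1.30 and 4.64) and T cells (1.59 and 4.17) gave ratios near those of the keratinocytes of their own library. BC100530 UMIs per Stfa1 UMI moved less, from 4.45 to 6.62 in basal, from 4.28 to 5.81 in suprabasal and from 4.23 to 3.60 in upper follicle cells.

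**Figure D2:**
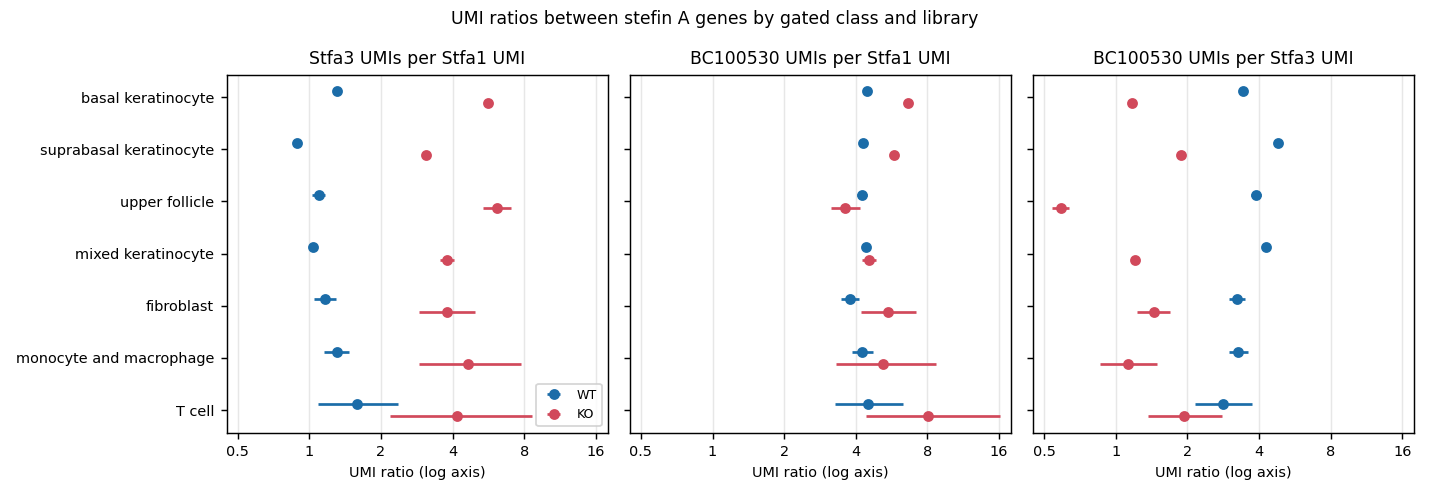
UMIs of Stfa3 per Stfa1 UMI, of BC100530 per Stfa1 UMI and of BC100530 per Stfa3 UMI (log axes) in 7 cell classes of the WT and KO libraries, with exact 95% intervals. Stfa3 per Stfa1 lies near 1 in WT keratinocytes and between 3.09 and 6.13 in KO basal, suprabasal, upper follicle and mixed cells, while BC100530 per Stfa1 lies between 3.60 and 6.62 in those classes.

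Stfa2 was rare. It had 186 UMIs in WT and 13 in KO basal cells (4.02 and 0.634 CPM, ratio 0.158, 0.0824 to 0.276) and 300 and 137 UMIs in suprabasal cells (12.5 and 8.49 CPM, ratio 0.681, 0.553 to 0.837, not called, but 0.640 and called without the highest cells). Of its KO UMIs, 81.1% were in suprabasal cells. Upper follicle cells held 4 and 1 UMIs, too few for a ratio.

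Stfa2l1 was nearly absent from keratinocytes, with 3 UMIs in WT and 0 in KO basal cells, although its promoter is 90.5% identical to that of Stfa2. Over all kept cells it had 89 UMIs in 21 WT cells and 10 UMIs in 7 KO cells. Of the WT UMIs, 73 (82.0%) were in 10 cells of cluster 6 (191 WT and 13 KO cells), a cluster led by the myeloid genes Chil3, Lyz2, Clec4e and Il1b. Those 10 cells, chosen for having Stfa2l1, stood at 2421 CPM of Stfa2l1, 18441 CPM of S100a8, 431 CPM of the granulocyte receptor gene Csf3r and 497 CPM of Retnlg, a neutrophil gene. The other 181 WT cells of the cluster stood at 1912, 42.7 and 9.40 CPM of S100a8, Csf3r and Retnlg. The median depths of these 10 and 181 cells were 2183.5 and 6308 UMIs. The macrophage receptor gene Csf1r stood at 66.3 CPM (2 UMIs in 1 cell) and 171 CPM. C1qa, another macrophage marker, went the other way, at 99.5 CPM (3 UMIs in 3 cells) and 30.8 CPM. The same 10 cells held Stfa1 at 2255 CPM, a level like that of suprabasal keratinocytes, against 49.6 CPM in the others. Of the 10 cells, 5 held the 68 Stfa1 UMIs, 8 held Csf3r and 3 held the 15 Retnlg UMIs. Among other neutrophil markers, Trem1 was seen in 7, Il1r2 in 5 and Cxcr2 in 4 of them, and Ly6g and G0s2 had 1 UMI each. In KO, the 12 cells of cluster 6 without Stfa2l1 stood at 959 CPM of Retnlg (50 UMIs in 2 cells).

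A gate for neutrophils held 5 WT cells and 1 KO cell, so no level is given for the class. In the keratinocyte classes the 14 neutrophil markers summed to 11.5 CPM in WT and 9.17 in KO basal cells, where 11 and 9 of 14 had a UMI and Ly6g was at 0 in both. They summed to 8.43 and 4.65 CPM in suprabasal cells, with 12 and 6 of 14 seen. These sums lie far below the levels of Stfa1, Stfa3 and BC100530 in the same cells, and in the range of Stfa2. The 4 wound keratins, which mark activated epidermis, summed to 4892 and 3871 CPM in basal, 14048 and 12705 CPM in suprabasal and 9003 and 7252 CPM in upper follicle cells, and their part in the stefin differences was not tested.

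**Figure D3:**
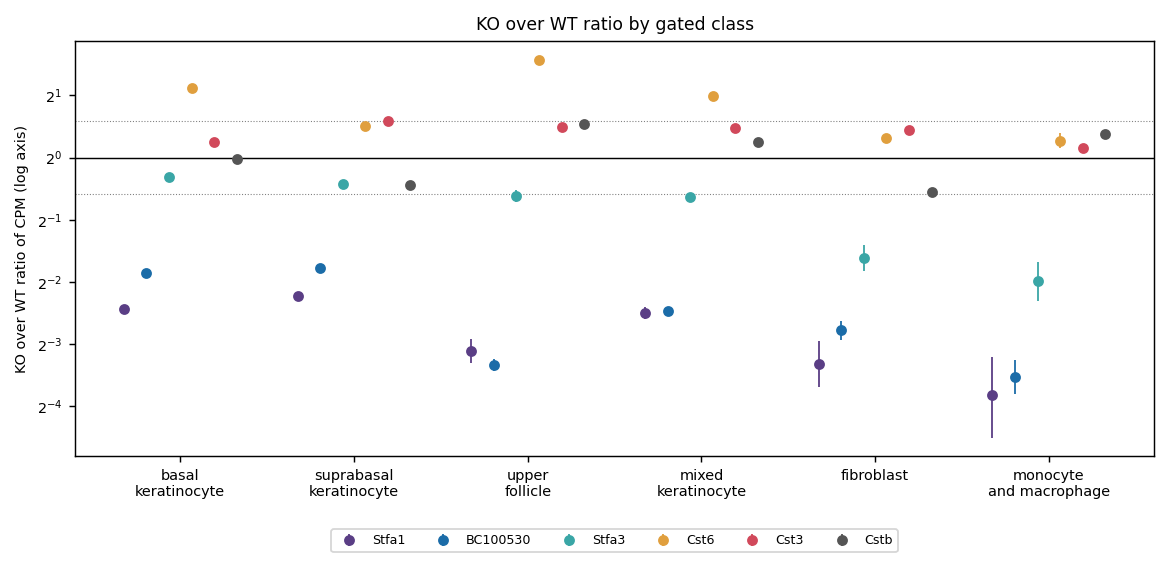
KO over WT ratios (log axis) of the 6 most abundant members in the 6 compared classes, with exact 95% intervals; the dotted lines mark 1.5-fold each way. Stfa1 and BC100530 lie below the lower line in all 6 classes, Cst6 lies above the upper line in basal, upper follicle and mixed cells, and Cst3 and Cstb lie between the lines apart from Cst3 in suprabasal cells.

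Counted against all genes, 3 of the 7 members with 20 UMIs were lower and 1 was higher in basal cells, where 9.77% of all genes tested were lower and 11.9% higher. In suprabasal cells 2 of 7 were lower (background 12.6%) and 1 higher (10.9%), and in upper follicle cells 3 of 6 were lower (17.6%) and 1 higher (10.2%). In mixed cells 4 of 7 were lower (10.4%) and 1 higher (10.9%). Fibroblasts and macrophages each had 3 of 6 lower (7.01% and 9.09%) and 0 higher (12.8% and 10.3%), and the lower ones were Stfa1, Stfa3 and BC100530, at levels that free RNA can give. Over all kept cells 5 of 8 were lower (7.38%) and 1 higher (21.4%), and over all gated keratinocytes 4 of 7 (10.4%) and 1 (13.3%). The members were chosen on these contrasts, so nothing is read from these counts.

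The leading clusters of a gate differed between the libraries, so the same genes were set side by side within clusters. There were 10 clusters with at least 200 cells in each library, formed without the 8 genes. Stfa1 was lower in KO in 10 of 10 (ratios 0.00696 to 0.559) and BC100530 in 10 of 10 (0.0175 to 0.579). In the 6 counted as keratin-led, both were lower in 6, with ratios of 0.0472 to 0.559 and 0.0493 to 0.579. The others included macrophage clusters 0 and 1, fibroblast cluster 16 and dermal papilla cluster 15, where free RNA can add to the counts. The lowest ratios of both were in cluster 15, where 1 WT cell held 820 of 1087 Stfa1 and 1895 of 3028 BC100530 UMIs; without the highest cells they were 0.0243 and 0.0426. In cluster 10, a basal cluster, Stfa1 stood at 1254 and 165 CPM. In the suprabasal clusters 12 and 13 it stood at 1914 and 178 CPM and at 950 and 354 CPM. The size of the difference thus depended on the cluster, and the direction did not in these 10, of which 6 were keratin-led. Within a gate and a cluster at once, a split chosen after seeing the data, suprabasal Stfa1 had ratios of 0.122 in cluster 12 and 0.447 in cluster 13, and upper follicle Stfa1 0.170 in cluster 12. Basal Stfa1 ran from 0.111 to 0.658 over clusters 9, 10 and 11 (in cluster 9, 0.690 and no call without the highest cells), and basal BC100530 lost its call in cluster 9 (0.696).

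Stfa3 had no single direction. It was lower in 8 of the 10 clusters, 4 of them among the 6 keratin-led ones. In suprabasal cluster 13 it stood at 785 and 1030 CPM (ratio 1.31). It was higher in cluster 9 (329 and 669 CPM, ratio 2.03), a cluster led by Krt5, Ly6d, Ehf and Ifi202b that no marker list named. Cluster 9 was also where Stfa1 (227 and 127 CPM, 0.559) and BC100530 (1379 and 799 CPM) differed least. Of all genes tested, 13.8% were called higher and 5.11% lower in cluster 9. These shares were 16.7% and 7.58% for cluster 10, 15.4% and 6.17% for cluster 11, 17.6% and 14.7% for cluster 12, and 13.8% and 6.49% for cluster 13. For the clusters of other cells they were 8.22% and 8.15% (0), 11.8% and 12.9% (1), 13.6% and 18.6% (15), 11.3% and 6.2% (16), and 9.45% and 14.7% (23).

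**Figure D4:**
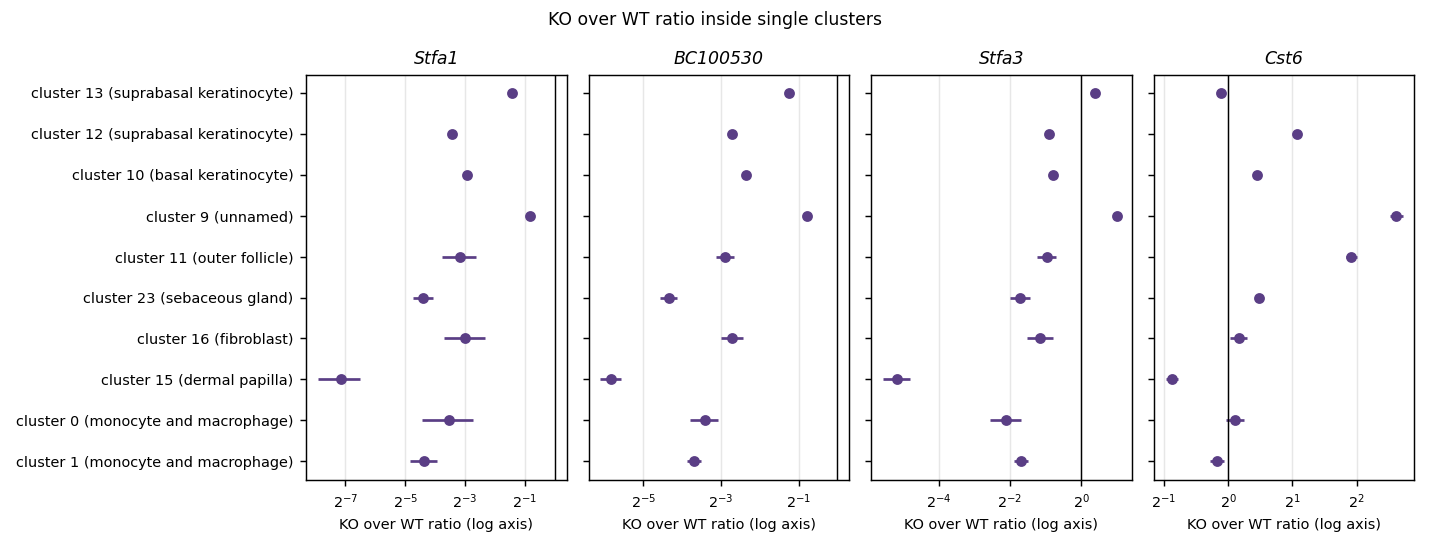
KO over WT ratios (log axis) of Stfa1, BC100530, Stfa3 and Cst6 in the 10 clusters with at least 200 cells in each library, with exact 95% intervals; the black line marks a ratio of 1. Stfa1 and BC100530 lie below 1 in all 10 clusters, and Stfa3 and Cst6 lie on both sides of 1.

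Shares of cells with a UMI were compared with all cells thinned to 600 UMIs; 0 gated cells were too shallow for it. Stfa1 was then seen in 37.8% of WT and 15.0% of KO suprabasal cells, against 77.9% and 68.6% unthinned. BC100530 was seen in 75.6% and 46.0%, against 97.1% and 81.9% unthinned. Stfa3 was seen in 39.2% and 34.1%, against 82.6% and 84.0% unthinned. In T cells, which should lack these genes, the thinned shares were 4.35% and 0.487% for Stfa1, 14.9% and 2.68% for BC100530 and 5.59% and 2.19% for Stfa3, at median depths of 3704 and 3623 UMIs. This background was itself higher in WT, and the keratinocyte shares lay above it in both libraries.

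**Figure D5:**
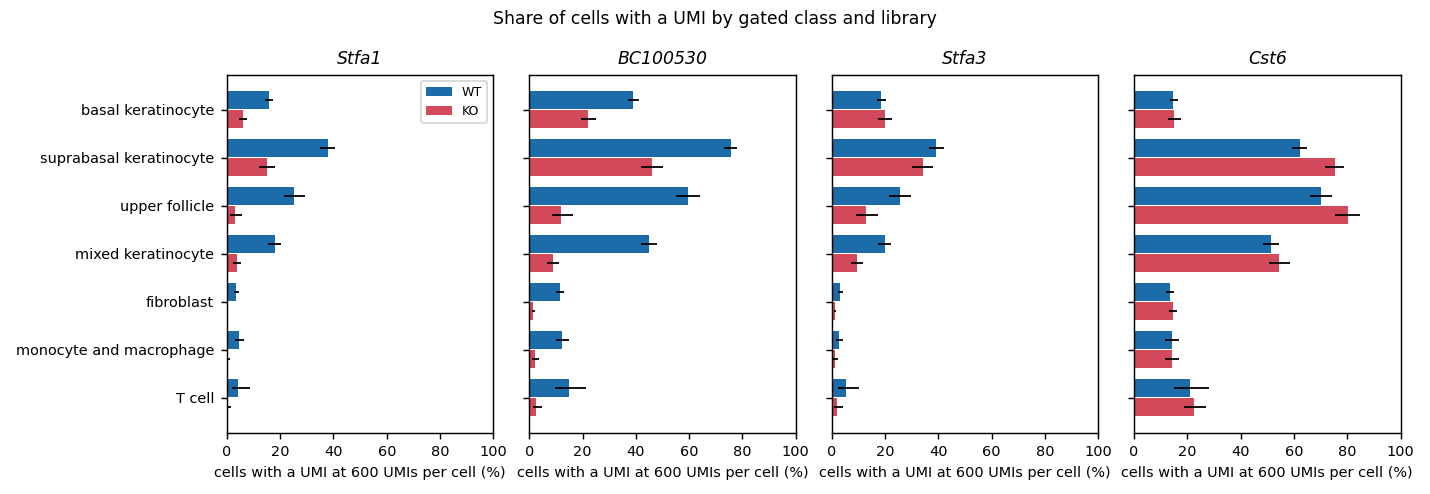
Share of cells (%) with at least 1 UMI of Stfa1, BC100530, Stfa3 or Cst6 after thinning to 600 UMIs, by class and library, with exact 95% binomial intervals. Suprabasal shares of Stfa1 are 37.8% in WT and 15.0% in KO, and T cells give the background.

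In basal and upper follicle cells the thinned shares gave the same order for Stfa1, 15.8% and 5.89% in basal and 25.2% and 2.90% in upper follicle cells. BC100530 was at 39.1% and 22.2% in basal cells and at 59.7% and 12% in upper follicle cells. Stfa3 was at 18.6% and 20% in basal cells, so the share of basal cells with this gene was not lower in KO.

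Within basal cells, stefin A levels went with the state of the cell. Cells with at least 2 of the 4 wound keratins on made up 54.0% of WT and 35.1% of KO basal cells. In WT these cells stood at 1113 CPM of Stfa1 against 306 CPM in the rest, and in KO at 198 against 113 CPM. BC100530 stood at 4925 against 1419 CPM in WT and at 1404 against 665 CPM in KO, and Stfa3 at 1451 against 397 and at 1172 against 593 CPM. All 3 genes were higher in wound keratin cells of both libraries, and Stfa1 and BC100530 were lower in KO within each state. Cycling cells, 27.7% of WT and 21.8% of KO basal cells, stood at 1195 CPM of Stfa1 against 425 in the rest in WT and at 187 against 132 in KO. In suprabasal cells, where 90.9% and 75.8% were in the wound keratin state, the KO order was turned, with Stfa1 at 451 CPM in that state and 491 CPM outside it.

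Cst6, the cystatin M/E gene, had another pattern; among classes with at least 50 cells it was highest in mixed, suprabasal and upper follicle cells. Outer follicle cells (132 WT and 158 KO cells) were at 189 CPM in WT, below T cells, and at 2121 CPM in KO. Of the 6234 KO UMIs of Cst6 in outer follicle cells, 1763 were in 1 cell. In WT Cst6 stood at 16272 CPM in mixed, 11799.8 in suprabasal and 11213 in upper follicle cells. The next class, sebaceous cells, was at 1198 CPM, and basal cells at 288 CPM were below T cells at 322 CPM. In KO it stood at 33109 CPM in upper follicle and 32215 in mixed cells, at 16819 in suprabasal cells and at 626 in basal cells. By UMIs it ranked 2nd of all genes in WT upper follicle cells and 1st in KO ones, and over all kept cells 26th and 2nd. The highest single cell of each library was in suprabasal cluster 13 and held 13059 Cst6 UMIs in WT (14.5% of the cell) and 14410 in KO (12.9%).

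Cst6 was higher in KO in upper follicle (ratio 2.95, 2.93 to 2.98), mixed (1.98, 1.97 to 1.99) and basal cells (2.17, 2.12 to 2.23), and at 1.43 (1.42 to 1.43) it missed the fold needed in suprabasal cells. In upper follicle cells the median cell held 24.7 Cst6 UMIs per 10000 in WT and 72.1 in KO. In suprabasal cells the medians were 20.9 and 54.1 and the 90th percentiles 299 and 529. The basal values carry a limit: thinned to 600 UMIs, Cst6 was seen in 14.8% of WT and 15.1% of KO basal cells, against 21.1% and 22.6% of T cells, so the basal share is at background. Of the basal UMIs, 3947 of 13330 in WT and 2544 of 12826 in KO were in 1 cell each. Without these the levels were 203 and 503 CPM (ratio 2.47), and the median basal cell held 1.06 and 1.36 Cst6 UMIs per 10000. Suprabasal shares were 62.2% and 75.4% and upper follicle shares 70.2% and 80.4%, above it.

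Within clusters the Cst6 difference was uneven. It was higher in KO in 3 clusters: cluster 9 (154 and 943 CPM, ratio 6.13), the outer follicle cluster 11 (212 and 800 CPM, 3.78) and the suprabasal cluster 12 (4325 and 9074 CPM, 2.10). In cluster 13, where it was highest, the levels were 44573 and 41183 CPM (0.924). Cluster 13 held 305 WT and 661 KO cells and cluster 12 held 729 and 255, so KO cells gated as suprabasal lay mostly in the cluster with the higher level. Cst6 was called lower in cluster 15, named dermal papilla (375 and 204 CPM, 0.545). In cluster 11, 1 cell held 2544 of the 5080 KO UMIs, and without the highest cell of each library the ratio there was 2.00 (202 and 403 CPM). Basal cluster 10 (432 and 587 CPM, 1.36) went the other way, to 2.11 (221 and 467 CPM) and a call, since 1 cell held 6299 of its 12782 WT UMIs. Basal cells inside clusters 9, 10 and 11 gave ratios of 1.98, 4.22 and 8.01, which were 2.07, 2.88 and 3.09 without the highest cells. Upper follicle cells of cluster 12 gave a ratio of 2.33, and mixed cells gave 1.48, 1.36 and 1.13 in clusters 11, 12 and 13. Lor, the loricrin gene of the cornified envelope, stood at 8.56 and 70.8 CPM in suprabasal cells while the granular marker list summed to 853 and 480 CPM. The part of cell maturity in the Cst6 difference was not tested.

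The balance of Cst6 to BC100530, 1 of the stefin A genes, differed between the libraries. Counts of BC100530 carry the limit of shared sequence, and the basal share of Cst6 was at background. Stfa3, which differed less between the libraries, was not set against Cst6. There were 0.0783 Cst6 UMIs per BC100530 UMI in WT and 0.617 in KO basal cells, 1.29 and 6.33 in suprabasal cells, and 6.83 and 204 in upper follicle cells.

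Cst3, the cystatin C gene, was highest outside the keratinocytes. Among classes with at least 50 cells it led in WT vascular endothelium (2063 CPM) and macrophages (1758 CPM), and in KO in Schwann cells (6045 CPM, 80 cells), vascular endothelium (2527 CPM) and macrophages (1961 CPM). T cells were lowest in both libraries, at 179 and 209 CPM. The Langerhans gate held 18 WT and 28 KO cells, at 14238 and 3427 CPM, and these few cells are given as levels only. Keratinocytes were in between, at 706 and 844 CPM in basal cells (ratio 1.20, 1.17 to 1.22), 721 and 1019 CPM in upper follicle cells (1.41, 1.36 to 1.47) and 608 and 920 CPM in suprabasal cells (1.51, 1.48 to 1.55, higher, and 1.49 without the highest cells, which is no call). Fibroblasts were at 629 and 855 CPM (1.36), and macrophages differed least (1.12, 1.09 to 1.14). Within the 10 clusters Cst3 ratios ran from 0.770 to 1.60, and only cluster 12 was called (640 and 1023 CPM).

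Cstb, the stefin B gene, was highest in macrophages and in the upper follicle. In WT it stood at 2996 CPM in macrophages, 2681 in upper follicle, 2264 in suprabasal and 1103 CPM in basal cells. In KO, upper follicle cells at 3888 CPM and macrophages at 3881 CPM had overlapping intervals, and suprabasal cells were at 1663 and basal cells at 1088 CPM. No compared class was called. Basal cells had a ratio of 0.986 (0.971 to 1.00), suprabasal cells 0.734 (0.724 to 0.745), upper follicle cells 1.45 (1.42 to 1.48), macrophages 1.30 (1.27 to 1.32) and fibroblasts 0.686. Cstb therefore lay on both sides of 1, with the lower ratios in suprabasal cells and fibroblasts.

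The other stefin A genes in the table were set beside the members. Gm5416 stood at 53.5 and 5.66 CPM in basal cells (ratio 0.106) and 60.6 and 3.90 CPM in suprabasal cells (0.0645), and it was lower in 7 of the 7 clusters where it could be tested. BC117090, whose coding sequence is 95.9% identical to that of BC100530, stood at 28.7 and 14.8 CPM in suprabasal cells (0.515). Csta1 stood at 55.0 and 34.0 CPM in basal cells (0.618) and at 150 and 233 CPM in suprabasal cells (1.55). Of the remaining pair, 2010005H15Rik stood at 7.87 and 1.61 CPM in basal cells (0.205) and was lower in 3 and higher in 1 of the 5 clusters where it had enough UMIs (ratios 0.0725 to 6.16). Gm5483 had 19 WT and 5 KO UMIs in basal cells (0.594, not called). Of its WT UMIs, 102 (61.8%) were in cluster 6. In the 10 WT cells of that cluster chosen for having Stfa2l1, it stood at 2686 CPM (81 UMIs in 7 cells). In all, 3 of 5 were lower and 0 higher in basal cells, and 2 of 4 lower and 1 higher in suprabasal cells, with the shares of all genes as above. The genes of the locus thus did not share 1 ratio. In basal cells they ran from 0.106 (Gm5416) and 0.158 (Stfa2) to 0.804 (Stfa3), and Csta1 differed in sign between layers.

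The proteases these inhibitors bind were listed as 11 cysteine cathepsins and legumain. In basal cells 3 of 10 measured genes were lower (all genes 9.77%) and 0 higher (median log2 ratio -0.11, against 0.04 over all genes), and in suprabasal cells 3 were lower (all genes 12.6%) and 0 higher (median -0.55, all genes 0.00). Ctsl, the cathepsin L gene and a target of cystatin M/E, stood at 371 and 331 CPM in basal cells (0.892) and at 543 and 203 CPM in suprabasal cells (0.374). Ctsk, the cathepsin K gene, stood at 61.1 and 32.9 CPM in basal and 63.4 and 23.2 CPM in suprabasal cells. Ctsh stood at 97.2 and 64.4 CPM in basal cells (0.662). Ctsl was thus called lower in suprabasal cells and not called in basal cells.

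In upper follicle cells 4 of the proteases were lower (all genes 17.6%) and 0 higher, with Ctsk at 106 and 19.3 CPM. In fibroblasts 4 were lower (all genes 7.01%) and 0 higher, among them Ctsl (1263 and 753 CPM) and Lgmn, the legumain gene (90 and 32.2 CPM). In macrophages 0 of 10 were called either way, and Ctsb, the cathepsin B gene, had the highest ratio (2235 and 2986 CPM, 1.34). The aspartic protease gene Ctsd, which these inhibitors do not bind, stood at 162 and 101 CPM in basal cells and at 552 and 943 CPM in macrophages. Of the transglutaminases that build stefins into the envelope, Tgm3 stood at 6.27 and 2.15 CPM in basal cells and Tgm1 at 33.4 and 52.6 CPM in upper follicle cells.

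The genes whose levels were most like each member were found by Pearson correlation of log2(CPM + 10) over 28 points, each a class in a library; points of a library share its depth and free RNA, so the values are descriptive. For Stfa1 they were BC100530 (0.975), Il1f9 (0.957), S100a8 (0.938), S100a9 (0.934) and Sprr2f (0.909). For Stfa3 they were BC100530 (0.933), Csta1 (0.908), Ckmt1 (0.895), Krtdap (0.894) and Stfa1 (0.886). For Cst6 they were Gsdma (0.975), Klk7 (0.960), Abhd12b (0.955), Defb6 (0.952) and Atp6v1c2 (0.95). By Spearman correlation 3 of the 5 remained among the nearest for Stfa1, without Il1f9 and Sprr2f, and 4 of the 5 for Stfa3, without Ckmt1. For Cst6 only Defb6 remained (Gsdma had a Spearman value of 0.740), so that list depends on the measure. S100a8, the alarmin gene, stood at 5045 and 305 CPM in basal cells and at 14207 and 653 CPM in suprabasal cells. Cstb was nearest to Il1rn (0.884) and Plbd1 (0.835), and no gene came above 0.730 (Rassf4) for Cst3.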

How the data were processed

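Droplet single-cell RNA was measured in 1 WT and 1 KO library. The deposited count matrices hold UMI counts per gene and cell; Cell Ranger 3.0.2, Seurat 3.0 and build mm10 are named in the submitters' processing notes, and software version 3.1.0 per the file headers. The members and gene lists were chosen with earlier results of these data known. Barcodes were kept where 200 or more genes were seen and mitochondrial UMIs did not pass 10%. A class gate needed at least 3 markers on and at least 30% of the list on. A marker was on with at least 1 UMI and a share above its mean share, averaged over the 2 libraries. The gate also needed a margin of 15 points over other lineages (10 among keratinocyte classes, otherwise mixed) and at least 1000 UMIs. Its thresholds were set after seeing the data. It left 40.4% of WT and 33.1% of KO cells without a class. Clusters (2000 variable genes, 30 components, 15 neighbours, Leiden resolution 1, 35 clusters) left out 26 genes, the members among them. Scrublet called 0 WT and 67 KO cells (0.655%) and so did not work in WT; an alternative removed 1554 and 838 cells. Classes with at least 200 cells in each library were compared, with exact Poisson and conditional binomial intervals. Genes were named by membership, by list (highest level and largest ratio each way) and as the 5 most alike per member. The ratios and calls were run on simulated counts with Poisson error only, so spread between cells or mice was not covered. Python 3.11.15, numpy 2.4.6, scipy 1.17.1, pandas 2.3.3, scanpy 1.11.5, leidenalg 0.10.2 and matplotlib 3.10.9 were used.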

Additional observations from a re-analysis of the deposited data

How the results depend on the processing

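The 33 called member values were recomputed under 9 other settings of gating, filtering, scaling and counting, where a value could be given. Of the 279 recomputed values, 263 kept their call, 16 lost it and 0 reversed. Of these settings, 2 could change little. Cells with at least 1000 UMIs kept 33 of 33 calls, but the gate already required that depth of every gated cell. Needing at least 50 UMIs kept 32 of 33, but it changes no ratio and can only drop calls with few UMIs. Stfa1 and BC100530 lost no call under the 9 settings. Cst6 in basal cells was no longer called with classes taken from named clusters (1.36), in thinned cells (1.26) or with cells weighted equally (1.36), which left 0 members higher there in each; inside cluster 9 alone there were 2. Cst3 in suprabasal cells was lost with named clusters (1.43), likely doublets removed (1.47), median-ratio scaling (1.497), thinning (1.39) and equal weights (1.38). Members higher numbered 0 with doublets removed, with median-ratio scaling and in cluster 13 alone, where 4 were lower. In upper follicle cells 3 were higher when thinned and in cluster 12 alone, and 2 with equal weights. Fibroblasts had 1 higher with named clusters. Mixed cells had 0 higher in clusters 11, 12 and 13 each, and 2 lower in clusters 12 and 13. All gated keratinocytes had 2 lower when thinned. Stfa3 lost its call in upper follicle cells with doublets removed (0.718) and median-ratio scaling (0.668), and in mixed cells with a stricter gate (0.682). Over all gated keratinocytes it lost its call with at most 5% mitochondrial UMIs (0.675), doublets removed (0.679), thinning (0.769) and equal weights (0.785). Stfa2 in mixed cells lost its call where at least 50 UMIs were needed. Without the cell that held most UMIs of the gene in each library, 32 of 33 called values in the classes kept their call and Cst3 in suprabasal cells lost it (1.49). The splits by cluster and the removal of highest cells were chosen after seeing the data. For Stfa2, thinned cells and some clusters held too few UMIs for a value. Median-ratio scaling moved the log2 scale by 0.18 over all kept cells and by at most 0.09 in the classes. No paired analysis was possible because each genotype has 1 library. Depth limits Stfa2 and Stfa2l1, which have too few UMIs in most classes for a ratio.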

Other observations

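Several levels fall outside the compared classes. In WT sebaceous cells (104 cells) Stfa1 had 2179 UMIs (490 CPM, above the mixed keratinocytes), of which 1140 were in 1 cell (240 CPM without it), and 0.112 Stfa3 UMIs per Stfa1 UMI; KO sebaceous cells (138 cells) held 51 Stfa1 UMIs. The granular gate held 2 WT and 15 KO cells, in which Cst6 stood at 58859 and 115028 CPM. A Langerhans cluster of 41 WT and 51 KO cells stood at 12282 and 5773 CPM of Cst3, and a Schwann cell cluster of 62 and 271 cells at 5806 and 6094 CPM. Fetub, another cystatin family gene, stood at 4.49 and 8.92 CPM in suprabasal cells.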
